A study of Homo sapiens with 2 samples.

Results

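S100A7 and its relatives are small calcium-binding proteins that work as dimers and change shape when calcium binds, which exposes a surface for partner proteins. Several of them are also released from cells, where S100A7, S100A8 and S100A9 act as alarm signals and antimicrobial proteins of inflamed skin and mucosa. S100A7, also called psoriasin, is abundant in psoriatic skin and is made in a share of breast tumours. The genes followed here were S100A7, S100A7A, S100A2, S100A3, S100A4, S100A6, S100A8, S100A9, S100A10 and S100A11, and every probe set that the platform annotation gives to 1 of them alone was taken. These were 14 of the 54675 probe sets on the array, for 10 of 19775 named genes. No probe set was shared between a gene of this group and another gene.

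The cells were MDA-MB 231, a highly invasive human breast cancer line without estrogen receptor. In the first group, S100A7 cells, the line carried S100A7 in the plasmid pIRES2-EGFP, in which an internal ribosome entry site lets the transcript of the inserted gene also encode a green fluorescent protein. In the second group, vector cells, the line carried pIRES2-EGFP with no insert. Both were stable transfectants, and the labels do not say whether each was a single clone or a pool. Both grew in DMEM with 10% fetal bovine serum, a confluence of 70 to 80% is given for the vector cells alone, and 2 µg of total RNA from each was labelled for an Affymetrix expression array. There was 1 array per group, so no difference below was set against a spread between cultures, and no test or p-value is given. Values are deposited MAS5 intensities in arbitrary units. An intensity under its array's 50th percentile (69.0 in S100A7 cells, 71.0 in vector cells) was read as below the floor, a gene was measured when a probe set reached the floor on at least 1 array, and a ratio with 1 side under the floor is a lower bound.

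The line was checked against its markers. Of the 6 genes listed as present in this line, all reached the floor on both arrays by their brightest probe set. The mesenchymal filament gene VIM read 35575 in S100A7 cells and 38087 in vector cells, and the receptor kinase gene AXL read 18543 and 19117 in the same order. CAV1 read 13108 and 18140, CD44 12481 and 11465, and MSN 7021 and 5329, again in that order. SPARC lay near the floor at 114 in S100A7 cells and 72.7 in vector cells, and its other probe set was under it at 7.37 and 19.6. The 9 probe sets of the estrogen receptor gene ESR1, the 2 of the progesterone receptor gene PGR and the 2 of the epithelial cadherin gene CDH1 stayed under the floor in both cell types. Of the 6 genes listed as low in this line, the remaining 3 reached it at similar levels in both cell types: GATA3 read 752 in S100A7 cells and 720 in vector cells, ERBB2 540 and 497, and EPCAM 513 and 544. The labelled absence of the estrogen receptor thus had its counterpart in ESR1, while 3 of the 6 genes listed as low stood above the floor. Neutrophils and monocytes, the usual source of S100A8 and S100A9, left little signal: of 6 of their markers 1 reached the floor, CSF3R at 29.2 in S100A7 cells and 79.9 in vector cells, and the summed intensity of the 6 was 187 and 170. Of 6 keratinocyte markers on the array, 2 reached it, KRT10 at 4156 in S100A7 cells and 5113 in vector cells and KRT1 at 69.5 and 69.6, whereas KRT5 and KRT14 lay between 2.72 and 13.9 in both cell types. The 3' over 5' intensity ratio, a check of RNA integrity, was 1.07 in S100A7 cells and 1.09 in vector cells for ACTB, and 0.801 and 0.718 for GAPDH.

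S100A7 itself came first as a check of the labels. Its probe set (205916_at) read 13232 in S100A7 cells and 11.99 in vector cells, which placed it at percentile 98.96 of all probe sets in the first and at percentile 18.3 in the second. The vector value lay well under the floor, so the signal was at least 186-fold higher in S100A7 cells, a log2 ratio of at least 7.54. It was the highest ratio of the 12688 measured genes. In RNA of a whole culture, more expressing cells and more RNA per cell cannot be told apart. The next 3 genes in order of log2 ratio, the only measure of likeness that a pair of arrays allows, were CCDC3 (3.13, a lower bound), FERMT3 (3.09) and HSD11B1 (3.09), far under that of S100A7.

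S100A7A, also called koebnerisin, is a close relative of S100A7 and stands next to it among the measured genes of chromosome 1. Its brighter probe set (232220_at) read 79.2 in S100A7 cells and 86.9 in vector cells, slightly above the floor on each, a log2 ratio of -0.13. Its other probe set (232170_at) read 4.74 and 4.56, below the floor on both. Neither S100A7A probe set read clearly higher in the cells whose S100A7 signal was 13232.

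The closeness of the pair extends to their promoters, which are shown because the chromosomal copies share almost the same start region, whereas the inserted gene came on a plasmid with a promoter of its own. The windows cover 250 bases before to 50 bases after each start, in the RefSeq table on GRCh38.p14, at chr1:153460602-153460901, minus strand, for S100A7 and at chr1:153416270-153416569, plus strand, for S100A7A. Aligned end to end, 289 of 300 bases were identical (96.3%), and capitals mark the 11 that were not.
S100A7: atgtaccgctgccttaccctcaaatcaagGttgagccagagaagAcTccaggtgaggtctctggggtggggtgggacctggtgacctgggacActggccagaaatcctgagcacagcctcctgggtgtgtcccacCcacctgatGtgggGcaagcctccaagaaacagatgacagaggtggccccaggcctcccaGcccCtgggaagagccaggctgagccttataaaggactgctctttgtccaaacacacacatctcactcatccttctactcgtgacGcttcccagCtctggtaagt
S100A7A: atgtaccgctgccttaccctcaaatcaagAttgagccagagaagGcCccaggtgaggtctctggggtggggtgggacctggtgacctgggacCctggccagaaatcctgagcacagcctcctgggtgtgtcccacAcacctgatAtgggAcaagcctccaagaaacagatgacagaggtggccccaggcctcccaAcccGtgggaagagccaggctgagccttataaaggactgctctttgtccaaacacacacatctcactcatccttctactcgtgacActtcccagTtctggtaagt
Both hold the letters TATAAA, searched on the strand of the gene, starting 28 bases before the start. Those letters occur in 7.33% of the 35116 promoters in the table. On the arrays, the S100A7A gene read close to the floor in both cell types, and S100A7 read 11.99 in the cells with no insert.

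**Figure D1:**
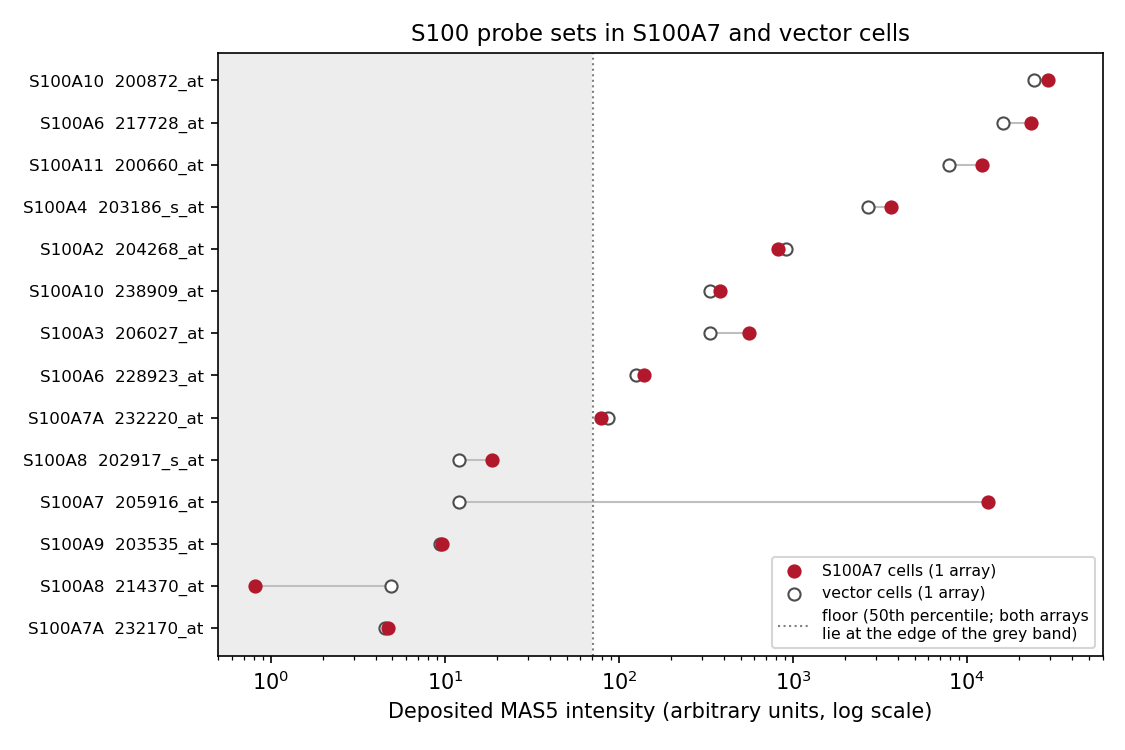
Deposited MAS5 intensity on a log axis for each of the 14 probe sets of the 10 S100 genes, with filled points for S100A7 cells and open points for vector cells, 1 array each, and a grey band for values below the floor. S100A7 crosses from the band to 13232, the dimmer S100A7A probe set and those of S100A8 and S100A9 lie in the band on both arrays, and the other 9 lie above the floor with both points close together.

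Of the other 9 genes 7 were measured. None of them was 2-fold apart, against 4.05% of all measured genes, and 2 were at least 1.5-fold higher in S100A7 cells, against 8.12% of all measured genes. No member was at least 1.5-fold lower, where the share over all measured genes was 10.0%. The median log2 ratio of the 7 was 0.45, beside -0.04 over all measured genes, and 5 of the 7 lay above 0, beside 45.8% of all measured genes. Those 5 were S100A3, S100A11, S100A6, S100A4 and S100A10, and the 2 below 0 were S100A2 and S100A7A. A guide to the size of such differences is how far the probe sets of 1 gene scatter around their mean log2 ratio. The pooled standard deviation of that scatter was 0.36 over 6465 genes and 0.33 in the brightest 2155 of them, and it holds no spread between cultures. It was taken from ratios in which values under the floor were raised to it, which can narrow it for dim probe sets.

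S100A3, a cysteine-rich protein best known from the hair cuticle, had the highest ratio of the 7. Its probe set (206027_at) read 560.5 in S100A7 cells and 331.9 in vector cells, 1.69-fold higher, a log2 ratio of 0.76 at percentile 95.6 of all measured genes. S100A11, which binds annexin A1, read 12107 in S100A7 cells and 7891 in vector cells (200660_at), 1.53-fold higher, a log2 ratio of 0.62 at percentile 92.7. Each of these genes was read by 1 probe set only. Both ratios were larger than the probe set scatter, as were those of S100A6 (0.53 on its bright probe set) and S100A4 (0.45). S100A11 stood only slightly past 1.5-fold.

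S100A6, or calcyclin, is a growth-regulated member that binds annexins and the ubiquitin ligase adaptor CACYBP. Its bright probe set (217728_at) read 23280 in S100A7 cells and 16173 in vector cells, 1.44-fold higher, just inside the 1.5-fold line. Its dim probe set (228923_at) read 139 and 125, a log2 ratio of 0.15 against 0.53 for the bright one, so the pair differed in size and not in direction. S100A4, also called metastasin, binds non-muscle myosin and is known for its link to cell motility and metastasis. It read 3678 in S100A7 cells and 2696 in vector cells, 1.36-fold higher, on a probe set (203186_s_at) whose suffix allows for several transcripts.

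S100A10, the p11 subunit that joins annexin A2 at the plasma membrane and has lost the ability to bind calcium, was the brightest gene of the group on both arrays. Its probe set 200872_at read 28993 in S100A7 cells and 24382 in vector cells, and 238909_at read 383 and 332. The log2 ratios were 0.25 and 0.21, so probe sets that differ widely in brightness gave nearly the same small difference. S100A2, a mostly nuclear protein of basal epithelial cells, read 823 in S100A7 cells and 917 in vector cells (204268_at), a log2 ratio of -0.16 at percentile 38.6. These ratios were smaller than the probe set scatter.

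S100A8 and S100A9, which pair as calprotectin, the abundant calcium-binding complex of neutrophils, were not measured in either cell type. S100A8 read 18.7 in S100A7 cells and 12.04 in vector cells on 202917_s_at, and 0.808 and 4.89 on 214370_at. S100A9 read 9.69 in S100A7 cells and 9.37 in vector cells (203535_at). All 3 probe sets lay at or under percentile 25.2 of both arrays, below the floor, where values have no order, so no fold is given.

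**Figure D2:**
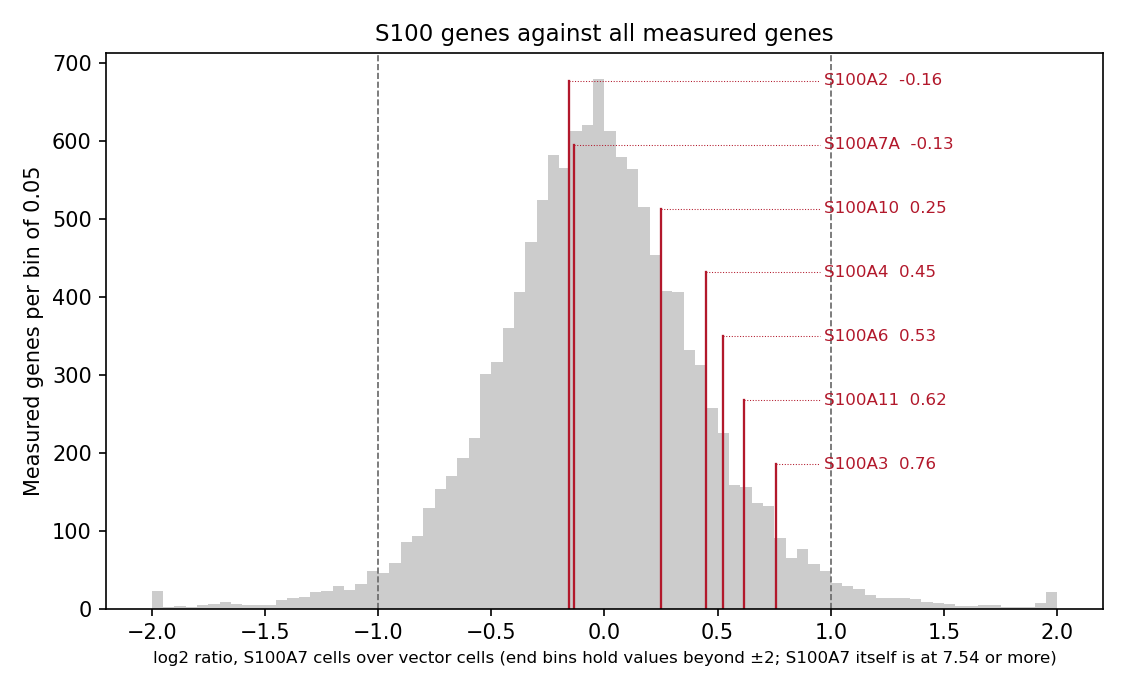
Histogram of the log2 ratio of S100A7 cells over vector cells for the 12688 measured genes in bins of 0.05, with red lines at the 7 measured S100 genes other than S100A7 and dashed lines at 2-fold. S100A2 and S100A7A lie near the middle of the distribution, the other 5 on its right side from 0.25 to 0.76, and none passes the 2-fold line; S100A7 lies off the axis at 7.54 or more.

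The family was then ordered by the signal of each gene's brightest probe set on each array. Probe sets differ in how well they capture their transcript, so this is an order of signals and not of transcript numbers. In S100A7 cells the order was S100A10, S100A6, S100A7, S100A11, S100A4, S100A2, S100A3 and S100A7A, and in vector cells it was S100A10, S100A6, S100A11, S100A4, S100A2, S100A3 and S100A7A. Leaving S100A7 aside, the order was the same on both arrays. S100A7 entered it at the third place, 1.76-fold under S100A6 and 1.09-fold above S100A11, which is too close to count as an order. The step between S100A2 and S100A3 was 1.47-fold in S100A7 cells and 2.76-fold in vector cells.

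Of the remaining S100 genes, 10 of 11 listed were on the array, all but S100A7L2, and 3 were measured. S100A16 read 7864 in S100A7 cells and 9961 in vector cells, a log2 ratio of -0.34. S100A13, which takes part in the release of fibroblast growth factor 1, read 2767 and 2775, a log2 ratio of -0.00, with 0.29 on its dimmer probe set. S100A5 read 167 in S100A7 cells and 140 in vector cells, a log2 ratio of 0.26. None of the 3 was 2-fold apart, where the share over all measured genes was 4.05%, so the count says little about them. S100A1, S100A12, S100A14, S100B, S100G, S100P and S100Z were below the floor on both arrays, S100A14 nearest to it at 62.7 in S100A7 cells and 17.9 in vector cells. Over all 10 measured S100 genes other than S100A7 the median log2 ratio was 0.25.

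All 10 genes of the group lie on chromosome 1, and the ratios of the measured ones are given here by their place along it. S100A7A, at -0.13, and S100A7, at 7.54 or more, come directly before S100A6 among the measured genes. S100A6, S100A5, S100A4 and S100A3 are consecutive measured genes, with log2 ratios of 0.53, 0.26, 0.45 and 0.76. The next 3, S100A2, S100A16 and S100A13, had -0.16, -0.34 and -0.00. S100A10 and S100A11, a pair at the other end of the span, had 0.25 and 0.62. The 20 nearest measured genes on each side of the span, 40 in all, had a median log2 ratio of 0.03, with 0.15 on the S100A10 side and -0.01 on the side of S100A1, and 1 of the 40 was at least 2-fold higher, against 1.80% of all measured genes. Over the 1274 measured genes of chromosome 1 the median was 0.10. With the median of the 40 neighbours subtracted, S100A3 stood at 0.72, S100A11 at 0.59, S100A6 at 0.49 and S100A4 at 0.42.

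**Figure D3:**
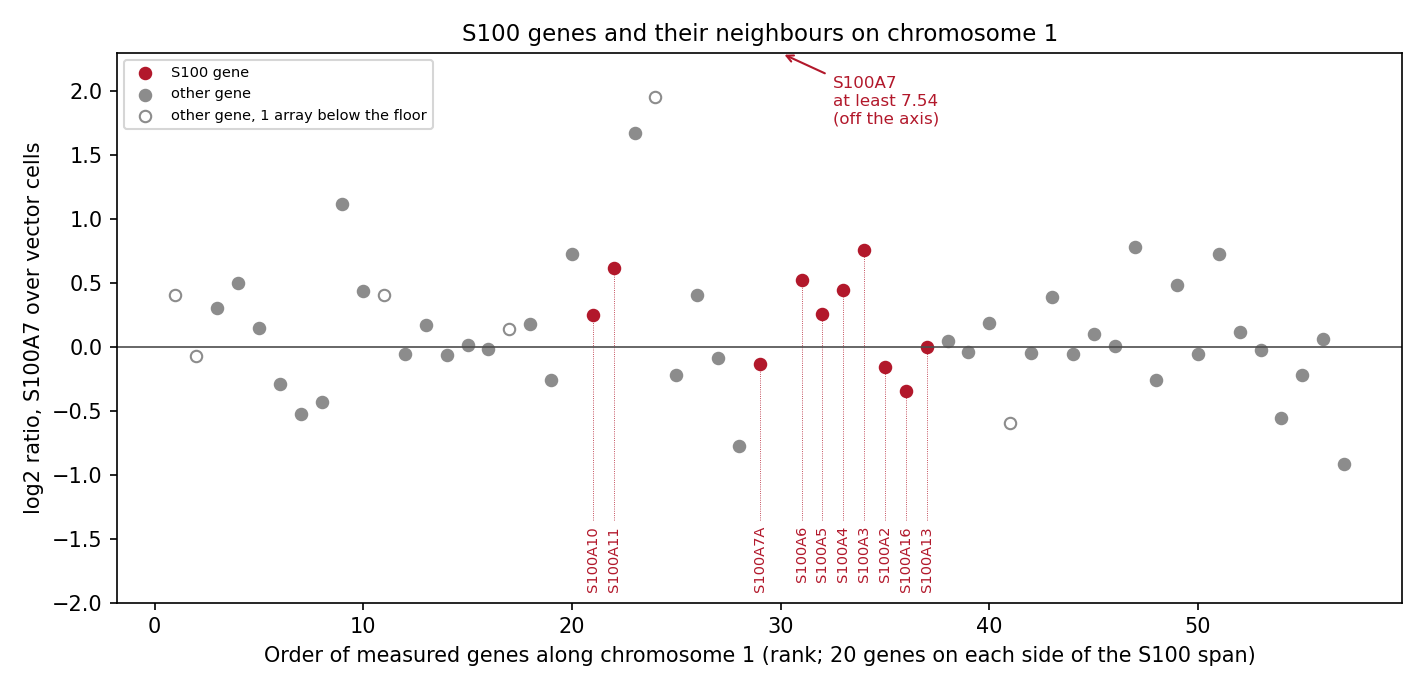
Log2 ratio of S100A7 cells over vector cells for measured genes in their order along chromosome 1, with S100 genes in red, other genes in grey, and open points where 1 array was below the floor. The run from S100A6 to S100A3 lies above 0 at 0.26 to 0.76 and the next 3 S100 genes at or below 0, while grey neighbours scatter on both sides of the line; S100A7 lies off the axis.

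Between the S100A11 end and the S100A9 end of the span lies the epidermal differentiation complex, which encodes structural proteins of the outer skin. Of 31 listed genes of this complex, 21 were on the array and 4 were measured. FLG, the skin barrier protein filaggrin, read 276 in S100A7 cells and 22.4 in vector cells, at least 3.89-fold higher and the 1 gene of the 4 past 2-fold, against 4.05% of all measured genes in either direction and 1.80% upward. SPRR4 had a log2 ratio of 0.41 and SPRR1A, a cornified envelope precursor, of -0.08. PGLYRP4, chosen after its value was seen, read 78.4 in S100A7 cells and 134 in vector cells, a log2 ratio of -0.78. CCDST, a long RNA also named FLG-AS1 for its antisense position to FLG and likewise chosen afterwards, read 272 in S100A7 cells and 85.4 in vector cells, a log2 ratio of 1.67. LCE1E, the other unlisted gene measured there, read 126 in S100A7 cells and 147 in vector cells, a log2 ratio of -0.22. Of the 6 measured genes of the span outside the S100 family, 3 thus lay above 0 and 3 below.

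The promoters of the group differ in their content of CG pairs, the sites of DNA methylation, whose density tends to be high in promoters used in many tissues. All 10 genes were found in the table, with 13 starts. S100A10 had 32 CG pairs in its 300 bases, S100A6 31 and S100A11 22, beside a median of 14 over the 35116 promoters. These are the 3 genes of the 10 with the highest signals in vector cells. S100A4 had 8, and every listed start of S100A2, S100A3, S100A7, S100A7A, S100A8 and S100A9 had 5 or fewer, as did 33.7% of all promoters. S100A2 and S100A3 were nevertheless measured on both arrays, and S100A16, outside the group, read 7864 and 9961 with 3 and 8 CG pairs at its 2 starts. A low count thus stood beside signals both above and below the floor. In S100A7 cells S100A7 is also encoded on the plasmid, apart from this promoter.

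Shown are the promoters of S100A11 (chr1:152036955-152037254, minus strand) and S100A3 (chr1:153549209-153549508, minus strand), the 2 genes past 1.5-fold, and of S100A9 (chr1:153357604-153357903, plus strand), which was below the floor, with CG pairs in capitals.
S100A11: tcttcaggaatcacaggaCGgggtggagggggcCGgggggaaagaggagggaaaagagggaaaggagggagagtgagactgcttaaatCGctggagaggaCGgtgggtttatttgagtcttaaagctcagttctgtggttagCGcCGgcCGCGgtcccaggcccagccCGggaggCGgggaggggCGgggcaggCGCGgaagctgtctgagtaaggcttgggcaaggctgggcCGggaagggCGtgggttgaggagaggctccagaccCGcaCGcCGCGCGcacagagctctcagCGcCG
S100A3: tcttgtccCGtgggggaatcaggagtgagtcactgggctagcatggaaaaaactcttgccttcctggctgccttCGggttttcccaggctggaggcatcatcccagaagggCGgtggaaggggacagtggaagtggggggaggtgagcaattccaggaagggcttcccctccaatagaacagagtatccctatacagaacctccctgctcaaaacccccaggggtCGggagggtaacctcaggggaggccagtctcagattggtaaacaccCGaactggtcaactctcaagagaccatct
S100A9: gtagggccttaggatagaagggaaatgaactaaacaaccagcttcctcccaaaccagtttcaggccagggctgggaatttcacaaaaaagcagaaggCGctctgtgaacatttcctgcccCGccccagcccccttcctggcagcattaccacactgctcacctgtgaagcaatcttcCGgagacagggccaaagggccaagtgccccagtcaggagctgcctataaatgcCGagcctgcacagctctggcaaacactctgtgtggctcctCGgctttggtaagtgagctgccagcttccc
S100A11 has 22 such pairs spread over most of its window, whereas S100A3 and S100A9 have 5 each. TATAAA lies 29 bases before the start of S100A9 and 31 before that of S100A4. It is in the windows of 2 of the 3 starts of S100A8, 29 bases before 1 and 126 bases before the other. These windows overlap, and both hold the same copy of the letters. TATAAA is not in the windows of S100A2, S100A3, S100A6, S100A10 or S100A11. The AP-1 letters TGANTCA, which read the same on both strands, are found in S100A3 (225 bases before the start) and at 1 start of S100A2 (52 bases before it), and in 7.71% of all promoters. The ratios of these 2 genes were 0.76 and -0.16, 1 above and 1 below 0. A looser NF-kB pattern, GGG and CC with any 5 bases between them on either strand, was in a window of 9 of the 10 genes, the exception being S100A9, and in 58.7% of all promoters. A gene was counted if any of its starts held the pattern, whereas the share is per promoter, so the 2 are not on the same scale. S100A8 held it at 1 of its 3 starts.

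**Figure D4:**
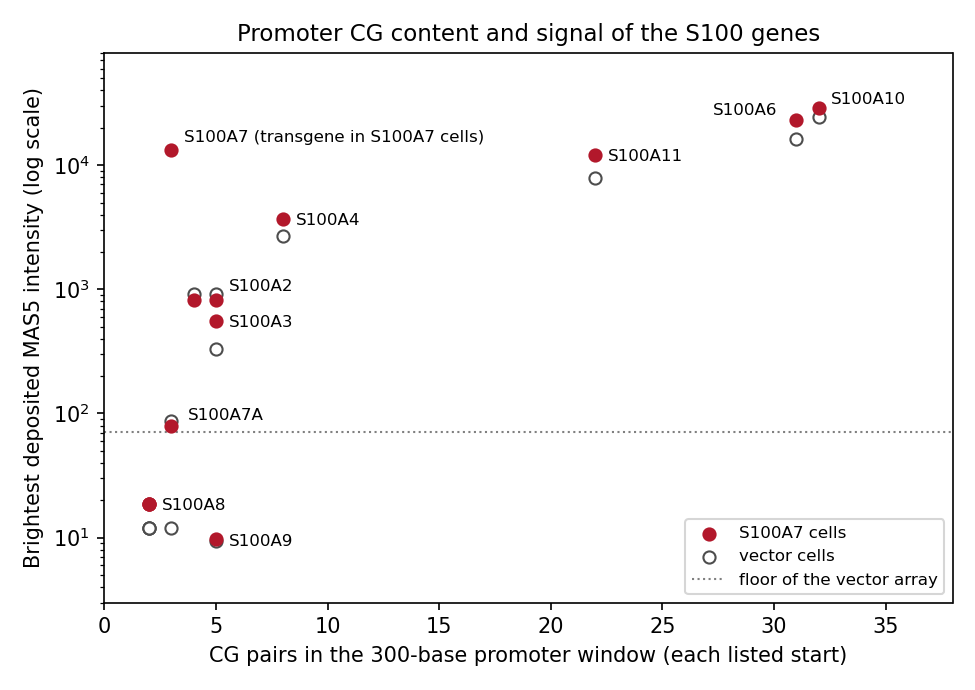
Brightest deposited MAS5 intensity of each of the 10 S100 genes of the group on a log axis against the number of CG pairs in its 300-base promoter window, with 1 point per listed start, filled for S100A7 cells and open for vector cells. S100A10, S100A6 and S100A11 lie at 22 to 32 pairs with the highest vector signals, the other 7 of the group at 8 or fewer pairs spread from below the floor to 3678, and S100A7 stands apart through its transgene.

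Of 27 listed genes of partner proteins, 26 were on the array and 21 were measured, with a median log2 ratio of 0.04, 12 above 0 and 9 below. By the brightest probe set of each, 0 of the 21 were 2-fold apart, close to the 4.05% of all measured genes. The probe sets of SUGT1, a co-chaperone gene, disagreed: the brightest had a log2 ratio of 0.15 and 2 others 0.31 and 0.12, while 2 dimmer ones were past 2-fold at 1.08 and 1.42, above the floor on both arrays. The brightest was ANXA2, the membrane partner of S100A10, at 28519 in S100A7 cells and 36781 in vector cells, a log2 ratio of -0.37 that its 2 other bright probe sets repeated at -0.39 and -0.41. All 3 end in _x_at, which marks probes that can bind related sequences. ANXA1, the partner of S100A11, read 17691 in S100A7 cells and 22276 in vector cells, a log2 ratio of -0.33. CAPZA1, a capping protein of actin filaments, had a log2 ratio of 0.11. S100A10 and S100A11 were thus slightly higher and ANXA2 and ANXA1 slightly lower, each by less than 2-fold. The other annexins on the partner list, named after their values were seen, stood near 0 by their brightest probe sets. ANXA5 had a log2 ratio of 0.04, ANXA6 of -0.01 and ANXA11 of 0.09. Dimmer probe sets gave -0.28 for ANXA6 and 0.37 and 0.60 for ANXA11. Outside the list, ANXA3 was also lower, at -0.26, while ANXA4 was at 0.06 and ANXA7 at 0.39.

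The other measured partners lay between -0.70 and 0.43 on the log2 scale. MYH9, the myosin heavy chain that S100A4 binds, had a log2 ratio of 0.04. CACYBP, the partner of S100A6, also had 0.04 by its brightest probe set. Its dimmer probe sets gave -0.05, 0.37 and 0.97, the last at 187 in S100A7 cells and 95.1 in vector cells. MYH9 and CACYBP were named after their values were seen, as were the genes that follow. For proteins described as binding S100A7, COPS5 (Jab1, a subunit of the COP9 signalosome) had 0.28, RANBP9 0.43 and FABP5, the epidermal fatty acid-binding protein, 0.01. The receptor gene AGER was below the floor on both arrays, at 10.5 or less in S100A7 cells and 49.3 or less in vector cells. The 2 partners at least 1.5-fold lower were CALD1, the actin-binding caldesmon, at -0.69, and the lipase gene LIPE at -0.70, a count of 2 in 21 beside 10.0% of all measured genes. Other CALD1 probe sets ranged from -0.52 to 0.50, while the second of LIPE was at -0.64.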

How the data were processed

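The deposited table holds MAS5 signals per the submitters' processing notes, an intensity for every probe set that was not log-transformed. No source used here gives the version, scaling target or detection calls of MAS5. After trimming 2% at each end the mean was 500.1 on both arrays, so intensities were used unchanged, and 0 value columns were left out.

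The platform annotation gave 41091 probe sets 1 gene, 1801 several and 11721 none, beside 62 controls; 41037 were updated to RefSeq symbols (GRCh38.p14) through Entrez identifiers. Values under an array's 50th percentile were raised to it, and the brightest measured probe set stood for each of 12688 genes. The call threshold was 2-fold.

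The genes and lists were chosen with earlier results of these data known. Named by rule were all 10 S100 genes, each measured other S100 gene, the 3 genes next to S100A7 in log2 ratio, and from each list the genes past 2-fold and the 3 brightest. With 1 array per group no test was possible, and the number of arrays limits the precision. The counting was tested on simulated data, in which changes past 2-fold were added to bright genes only. Smaller changes and genes near the floor were not covered by it. Promoters were aligned with Biopython 1.88. The 3 promoter motifs and the count of CG pairs were chosen after seeing the data.

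Alternatives were median centring, quantile normalization, floors at the 30th and 70th percentile or none, a pseudocount of 32, medians over probe sets, dropping _x_at and _s_at probe sets, thresholds of 1.5-fold and 3-fold, means, and windows of 10 and 40 genes. Subtracting the neighbours' median was added after seeing the data.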

Additional observations from a re-analysis of the deposited data

How the results depend on the processing

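The log2 ratio of S100A7 is a lower bound set by the floor: it was 8.96 with a floor at the 30th percentile, 5.55 at the 70th, 10.11 with none and 8.24 with a pseudocount of 32, against 7.54. S100A3 stayed between 0.70 and 0.80 and S100A11 between 0.59 and 0.66 under 9 alternatives each, past 1.5-fold in all of them. The floors, the median over probe sets and the dropping of _x_at and _s_at probe sets could not move these 2 genes or S100A2. Each has 1 probe set, above every floor tried and without such a suffix, so only the remaining alternatives bear on them. S100A6 ranged from 0.34, as the median of its probe sets, to 0.57, S100A4 from 0.42 to 0.49 over 8, and S100A10 from 0.22 to 0.34. S100A2 stayed below 0 under 9 alternatives and S100A7A under 8. S100A7A was not measured with a floor at the 70th percentile, nor S100A4 without _x_at and _s_at probe sets. The 30th-percentile floor, no floor and the median over probe sets left S100A7A at -0.13 and S100A4 at 0.45. The 70th-percentile floor did the same for S100A4, and the dropping of _x_at and _s_at probe sets for S100A7A. These alternatives are thus no check of either gene. The median of the 7 genes stayed between 0.33, as a mean, and 0.49 under 10 alternatives. At 1.5-fold, 2 of them were called. The 30th-percentile floor called 1 of the other S100 genes, S100A14 (1.24). Of the skin genes, 0 were called with the 70th-percentile floor, which left none measured, and 2 at 1.5-fold. Of the partners, 1 was called without _x_at and _s_at probe sets (SUGT1, 1.08) and 2 at 1.5-fold. The neighbours' median was 0.11 with a floor at the 30th or the 70th percentile and with 40 genes on each side, and 0.12 without _x_at and _s_at probe sets, against 0.03. Over all measured genes 514 were called, with 1658 (679 higher, 979 lower) at the 30th-percentile floor, 187 (99 and 88) at the 70th, 1188 (506 and 682) with none, 2305 (1030 and 1275) at 1.5-fold and 102 (47 and 55) at 3-fold. No paired analysis was possible because each group had 1 array. Signals under the floor, S100A8 and S100A9 among them, give no ratio, and neither cultures nor separately selected lines were repeated.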
